A study of Mus musculus with 21 samples.

Results

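Kidney endothelial cells were profiled in the E14.5 mouse embryo by translating ribosome affinity purification (TRAP-seq), and the ribosome-bound RNA of these cells was compared with the ribosome-bound RNA of the whole kidney. The comparison used 6 of the 21 libraries of the series, chosen by their labels: 3 kidney endothelial translatomes and 3 kidney translatomes. All 6 came from embryos heterozygous for Gt(ROSA)26Sor-mCherry-Rpl10a, in which a ubiquitous promoter drives a red fluorescent ribosomal protein once Cre recombinase has removed a stop cassette, so that tagged ribosomes and the RNA on them can be pulled down with beads against the fluorescent protein. The endothelial libraries carried Cdh5CreERT2+/-, a Cre that is driven by the VE-cadherin promoter and works only after tamoxifen, which the dams received by gavage. The whole kidney libraries carried Sox2Cre+/-, which acts in every derivative of the epiblast and needs no tamoxifen. The allele goes back to 1 targeted stem cell clone, embryos were picked by their fluorescence, and each library came from kidneys of at most a pair of embryos.

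The groups therefore differed in more than the tagged cells. Driver and tamoxifen went with the group, the 3 endothelial libraries shared a sequencing lane that held no whole kidney library, and these differences cannot be told apart from the cell type. The 3 endothelial libraries held 33237550 to 45166528 counted reads and the 3 whole kidney libraries 21760652 to 24605124. Log-scale correlations were 0.9966 to 0.9978 among endothelial libraries, 0.9965 to 0.9968 among whole kidney libraries and 0.961 to 0.9669 between the groups, and no library stood apart from its group. Levels are given below as RPKM, the deposited reads per kilobase of transcript scaled by mapped reads, which is the scale on which different genes can be set side by side. Fold changes were fitted to the read counts with edgeR after correction for library composition, and are given on the log2 scale, endothelial against whole kidney, with the standard error and an adjusted p (edgeR quasi-likelihood test, Benjamini-Hochberg). A gene was called enriched or depleted at an adjusted p under 0.001.

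The endothelium lines every blood vessel of the kidney, from the renal artery to the capillaries of the glomerulus, where blood is filtered. Its cells are held together by VE-cadherin junctions, take their growth and survival signals from VEGF, angiopoietin, Notch and apelin ligands, and in the kidney become thin and perforated by fenestrae. At this stage of development the kidney also holds nephron progenitors, the branching ureteric bud, early nephrons, stroma, mural cells and blood cells, all of which carry tagged ribosomes in the Sox2Cre embryos.

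The 3 marker genes of the endothelium were several-fold higher in the endothelial libraries. Cdh5, which encodes VE-cadherin (chromosome 8, 104101613 to 104144504, GRCm38), was read at 364, 373 and 339 RPKM in the endothelial libraries and at 51.1, 51.2 and 51.3 RPKM in the whole kidney libraries (log2 fold change 3.16 ± 0.07, adjusted p = 3.5e-10). Pecam1, an adhesion molecule of endothelial junctions (chromosome 11, 106654213 to 106715281), stood at 390.3, 415 and 372 RPKM against 63.1, 66.8 and 68.0 RPKM (log2 fold change 2.93 ± 0.08, adjusted p = 4.4e-10). Plvap, which forms the diaphragms of fenestrae and caveolae (chromosome 8, 71497753 to 71511806), stood at 439.5, 460.2 and 357 RPKM against 61.3, 66.4 and 65.1 RPKM (log2 fold change 3.06 ± 0.10, adjusted p = 1.1e-09). For each of the 3 genes every endothelial library lay above every whole kidney library, and the whole kidney values spread little. The fitted folds, 8.96 for Cdh5, 7.62 for Pecam1 and 8.33 for Plvap, exceed the ratios of the RPKM means because RPKM carries no composition factor. The 10 most-read rows took 7.63% to 8.318% of the reads in endothelial libraries and 3.271% to 3.684% in whole kidney libraries. Scaling by total counts alone moved the median fold change of all genes by -0.369, and fold changes below are relative to the composition-corrected scale. In these bulk libraries a change in the number of cells of a type and a change in RNA per cell cannot be told apart.

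**Figure D1:**
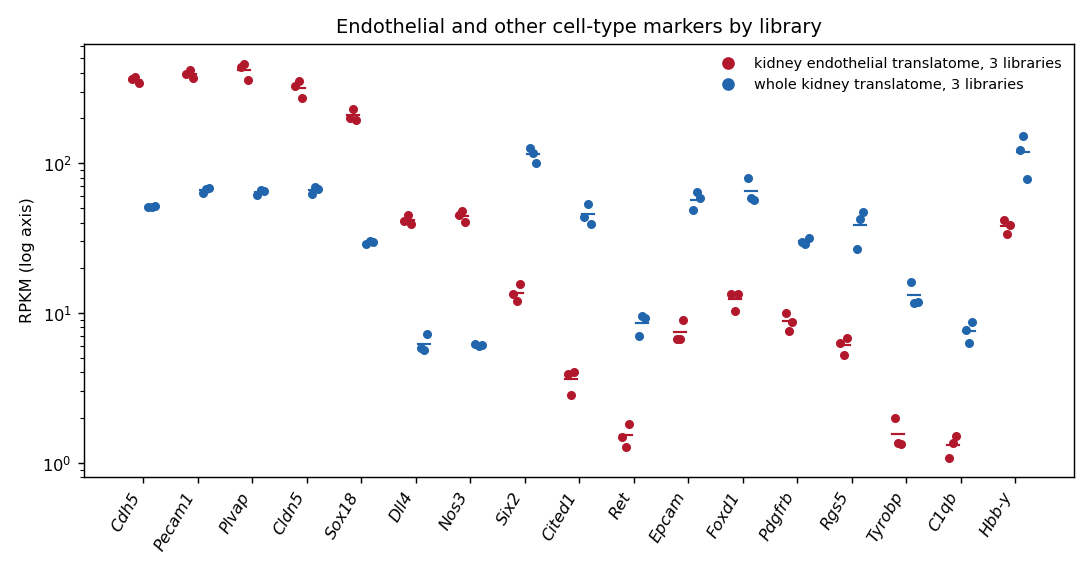
RPKM (log axis) of 7 endothelial genes and 10 markers of other kidney cells in the 3 endothelial libraries (red) and the 3 whole kidney libraries (blue), with points for libraries and lines for group means. The endothelial genes from Cdh5 to Nos3 lie higher in all red points. The nephron progenitor, ureteric, stromal, mural and macrophage genes shown, from Six2 to C1qb, and the globin gene Hbb-y lie lower. Not every gene of these cell types was lower. Of 14 pericyte and smooth muscle genes 7 were depleted and 2 enriched, and of 19 macrophage genes 16 and 1. Early nephron, tubule and podocyte genes are not shown, and of 19 tested 7 were enriched and 7 depleted. Among all genes 16.7% were enriched and 15.0% depleted. The groups do not overlap for any gene shown. Of 13 red cell genes tested, 3 were depleted and 10 were not called.

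Promoter sequence is shown for 3 genes with strong endothelial enrichment and for Six2, a nephron progenitor gene with strong depletion, so that the letters a reader would search can be seen beside the values. Each run is the 250 bases before the RefSeq start on GRCm38.p6, written 5′ to 3′ on the strand of the gene. Capitals mark the word AGGAAG, the word CCGGAA or the word AACAGGAA on either strand, words built around the GGAA core that ETS factors, a family with many endothelial members, are known to prefer. The longest word shares its core with the others and can overlap them. No promoter entry was matched for Cdh5, Pecam1 or Plvap.
Tie1 promoter, chr4:118489850-118490099, minus strand: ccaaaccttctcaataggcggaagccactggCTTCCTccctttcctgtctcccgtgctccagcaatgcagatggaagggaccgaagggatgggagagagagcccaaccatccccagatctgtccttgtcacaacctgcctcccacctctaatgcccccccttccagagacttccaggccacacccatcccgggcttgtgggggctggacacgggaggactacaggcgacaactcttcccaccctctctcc
Kdr promoter, chr5:75978456-75978705, minus strand: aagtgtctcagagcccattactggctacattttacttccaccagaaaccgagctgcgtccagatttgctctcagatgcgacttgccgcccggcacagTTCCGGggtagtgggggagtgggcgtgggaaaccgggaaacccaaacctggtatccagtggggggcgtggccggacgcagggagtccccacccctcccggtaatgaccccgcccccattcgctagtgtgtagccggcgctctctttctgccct
Robo4 promoter, chr9:37401722-37401971, plus strand: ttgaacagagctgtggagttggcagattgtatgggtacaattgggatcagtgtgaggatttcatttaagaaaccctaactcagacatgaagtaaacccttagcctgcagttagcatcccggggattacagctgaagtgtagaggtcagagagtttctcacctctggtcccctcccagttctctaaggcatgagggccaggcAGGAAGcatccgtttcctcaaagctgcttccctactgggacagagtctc
Six2 promoter, chr17:85688255-85688504, minus strand: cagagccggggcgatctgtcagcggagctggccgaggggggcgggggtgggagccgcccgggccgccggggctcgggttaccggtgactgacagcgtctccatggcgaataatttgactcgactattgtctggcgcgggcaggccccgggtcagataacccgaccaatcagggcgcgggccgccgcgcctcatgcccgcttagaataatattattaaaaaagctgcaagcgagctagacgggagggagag

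Tie1, Kdr and Robo4 each held 1 of these words, and the Six2 window held 0. The words were CTTCCT in Tie1 and TTCCGG in Kdr, which are read on the other strand, and AGGAAG in Robo4. The genes shown were picked by hand, not by a rule, and do not stand for their lists. Over 13374 of the 18940 genes tested that could be matched by symbol to a RefSeq window, AGGAAG was present for 32.6% of genes. It was present for 46.3% of the 367 matched genes enriched more than 4-fold and for 32.4% of the 395 matched genes depleted more than 4-fold. CCGGAA was present for 11.7% of the enriched and 10.4% of the depleted genes, against 20.1% of all genes tested, and AACAGGAA for 4.4%, 3.0% and 2.4% in the same order. Over the 27025 genes with a RefSeq window of this length, tested or not, the shares of genes were 32.3% for AGGAAG, 13.6% for CCGGAA and 2.5% for AACAGGAA. Windows of 1 chromosome were left out of all these counts. Of the 20 matched genes of the nephron progenitor and ureteric bud lists, 7 held AGGAAG and 4 held CCGGAA, near the shares of all genes tested. Of the 19 matched surface and junction genes, 57.9% held AGGAAG, 5.3% CCGGAA and 15.8% AACAGGAA. The 1 gene of this list with CCGGAA was Kdr. A match describes letters only, and binding was not measured.

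Of 18940 genes tested, 3163 were enriched in the endothelial libraries (16.7%) and 2837 were depleted (15.0%). Of the enriched genes, 516 passed 4-fold (2.72% of genes tested), and of the depleted genes 607 did (3.20%). The median fold change was -0.04 over all genes, 0.80 over the enriched genes and -1.28 over the depleted genes. The larger median size among depleted genes holds for called genes on the composition-corrected scale, and its cause was not tested. The balance of the calls depended on scaling: 52.7% of called genes were enriched with composition factors and 21.7% with total counts, where 1564 genes were enriched and 5655 depleted. By deposited RPKM, with no fit, the endothelial libraries lay above whole kidney without overlap for 15.0% of genes tested. Whole kidney lay higher without overlap for 50.0%. A lack of overlap, as given below for depleted genes, was therefore common among all genes. Among genes read at a mean of at least 5 RPKM in endothelial libraries, only B3gnt3, Cldn15, Acta1, Egfl8 and Eda2r, all at lower levels, had a higher enrichment than Clec14a, a lectin of the endothelial surface, at 3.24 ± 0.08. Endothelial genes lay close beneath it, with Nos3 at 3.22, Esam at 3.18, Sox18 at 3.18, Cdh5 at 3.16 and Robo4 at 3.16.

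**Figure D2:**
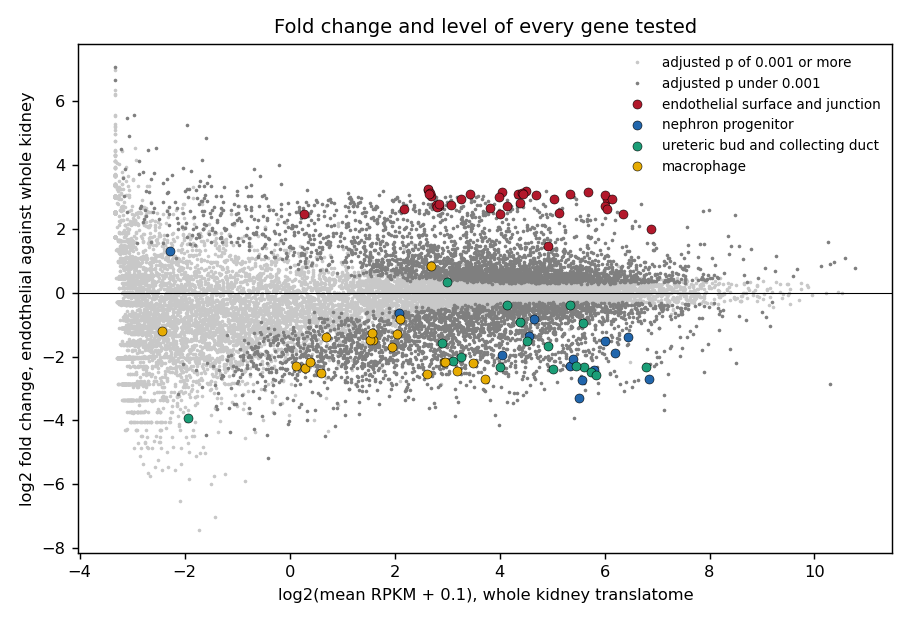
Log2 fold change, endothelial against whole kidney, of the 18940 genes tested against their level in the whole kidney translatome on a log2 scale, log2(mean RPKM + 0.1), with 4 gene lists coloured. The endothelial surface and junction genes (red) form a band that ends near 3.24, nephron progenitor (blue), ureteric bud (green) and macrophage genes (yellow) lie mostly below 0, and the widest scatter is at low levels.

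Endothelial surface and junction genes rose together. All 37 members of this list were enriched, against 16.7% of all genes, 35 of them more than 4-fold, with a median fold change of 2.93. They included receptors for VEGF and angiopoietin, the nitric oxide synthase of vessels and the lipase-anchoring protein of capillaries. Clec14a was read at 49.0, 45.7 and 41.2 RPKM in endothelial libraries and 5.60, 6.22 and 6.63 in whole kidney, and Nos3, which makes the vasodilator nitric oxide, at 44.9, 47.9 and 40.7 RPKM against 6.19, 6.04 and 6.11 (log2 fold change 3.22 ± 0.07, adjusted p = 3.5e-10). Esam, a junctional adhesion molecule, was read at 166, 175 and 141 RPKM against 22.1, 23.7 and 22.1, and Robo4, a roundabout receptor of vessels, at 115, 125 and 102 RPKM against 15.6, 16.3 and 17.1. Cldn5, the endothelial tight junction claudin, was read at 328, 354 and 270.3 RPKM against 61.7, 68.9 and 66.8 (log2 fold change 2.62 ± 0.10, adjusted p = 3.0e-09). By RPKM every endothelial library lay above every whole kidney library for all 37 genes, against 15.0% of all genes tested. The smallest enrichments in the list belonged to Ramp2 at 2.00 ± 0.07 and Calcrl at 1.46 ± 0.07, which together form the adrenomedullin receptor and stood at 119 ± 3.83 and 30.1 ± 1.75 RPKM in whole kidney (mean ± SD, n = 3). Vwf, a clotting factor carried by mature vessels, was enriched (log2 fold change 2.46 ± 0.20, adjusted p = 1.7e-06) at the lowest level of the list, 3.34, 4.69 and 6.19 RPKM.

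The transcription factors of the endothelium did not all move one way. Of 31 factors, 23 were enriched, 16 of them more than 4-fold, against 16.7% enriched among all genes. The 5 depleted were a share near the 15.0% of all genes, and 3 were not called. The median was 2.035. Sox18 had the largest enrichment of the list. Among the SoxF genes Sox18 was read at 199.6, 231 and 194 RPKM against 28.6, 30.0 and 29.5 (log2 fold change 3.18 ± 0.08, adjusted p = 3.5e-10), Sox7 at 59.9, 70.5 and 62.6 against 11.1, 10.7 and 10.6 (2.93) and Sox17, a factor of arteries, at 26.3, 28.7 and 24.5 against 4.73, 5.22 and 5.23 (2.74). Of the ETS factors, Erg was enriched by 3.03 ± 0.07, Ets1 by 2.17 ± 0.09, Fli1 by 2.15 ± 0.07 and Ets2 by 2.09 ± 0.06. Klf2, which responds to blood flow, was enriched by 3.02 ± 0.09 from 8.90, 8.54 and 7.09 RPKM in whole kidney to 50.7, 56.0 and 48.9 RPKM, without overlap. Bcl6b, Tal1, Hhex and Lmo2, the last a partner of Tal1, rose by 3.01, 2.87, 2.70 and 2.54.

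The depleted factors were Meox2 at -1.91 ± 0.13, Nr2f2, the vein factor, at -1.05 ± 0.07, Foxc2 at -1.03 ± 0.08, Foxc1 at -0.81 ± 0.09 and Hey2, an arterial Notch target, at -0.54 ± 0.10. The call of Hey2 was lost whichever library was left out, with fold changes of -0.59 to -0.49. Nr2f2 was read at 66.7, 62.6 and 61.7 RPKM in endothelial libraries and 176, 167 and 169 RPKM in whole kidney, and every endothelial library lay beneath every whole kidney library. Foxc2 stood at 20.0, 17.4 and 17.8 against 52.0, 46.5 and 46.1 RPKM, with the same order. Etv2, the factor that starts the endothelial lineage in the earlier embryo, was read at 0.0430, 0.0583 and 0 RPKM in endothelial libraries and 0.195, 0.0808 and 0 in whole kidney and was not called. Id3 (-0.10, adjusted p = 0.32) and Klf4 (0.79, adjusted p = 0.0039) did not pass the threshold. Id3 was depleted with total counts, at -0.47, and Klf4 was enriched with DESeq2, at 0.79, and without whole kidney library 1, at 1.11.

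In the signalling pathways of vessels, the VEGF and angiopoietin receptors were enriched and the ligand genes went both ways. Of 31 VEGF, angiopoietin, Notch, ephrin and apelin genes, 17 were enriched and 10 depleted, against 16.7% and 15.0% of all genes. The median was 0.93. The VEGF receptors Kdr (149.6, 149.9 and 139 RPKM against 21.2, 22.3 and 21.9), Flt1 (41.3, 41.6 and 40.4 against 6.22, 5.66 and 6.67) and Flt4 (73.9, 73.5 and 66.1 against 10.2, 10.5 and 11.4) rose by 3.10 ± 0.07, 3.09 ± 0.07 and 3.09 ± 0.07. Their coreceptors Nrp2 and Nrp1 rose by 2.25 ± 0.06 and 0.93 ± 0.06. The ligand genes Vegfa (-0.45 ± 0.06), Vegfb (-0.76 ± 0.09), Pgf (-1.10 ± 0.13) and Figf, which encodes VEGF-D (-2.26 ± 0.18), were depleted, and Vegfc was enriched (1.30 ± 0.09). Vegfa was read at 14.4, 15.1 and 14.5 RPKM in endothelial libraries and at 24.1, 25.7 and 25.6 RPKM in whole kidney, with no overlap.

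The angiopoietin receptor genes Tek and Tie1 rose by 2.81 ± 0.08 and 3.10 ± 0.08, while the ligand Angpt1 was depleted (-1.78 ± 0.12) and Angpt2 had a value of -0.66 that did not pass (adjusted p = 0.0012). Angpt2 was depleted with DESeq2, at -0.65, with total counts, at -1.03, and in the fit of all 21 libraries, at -0.68. In the Notch pathway, Dll4, the ligand of sprouting and arterial endothelium, was read at 41.0, 45.2 and 39.4 RPKM against 5.86, 5.61 and 7.17 (log2 fold change 3.11 ± 0.10, adjusted p = 1.0e-09). Notch4 (2.93), Jag2 (2.63) and Notch1 (1.54) were enriched, and Heyl (-2.13), Notch3 (-1.47) and Notch2 (-0.57) were depleted. The call of Notch2 was lost without endothelial library 1 or whole kidney library 3, at -0.58 and -0.53. Jag1 had a fold change of -0.00 ± 0.07 (adjusted p = 0.97), and its sign turned when endothelial library 1 or 2 or whole kidney library 3 was left out. With total counts Jag1 was depleted, at -0.37. The arterial ephrin ligand Efnb2 and the venous receptor Ephb4 rose, by 1.26 ± 0.07 and 1.39 ± 0.06. Apelin and its receptor both rose, Apln by 2.48 ± 0.11 and Aplnr by 2.93 ± 0.12, the latter from 37.5, 52.9 and 41.4 to 272, 267 and 246 RPKM.

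BMP and TGF-beta genes went both ways. Of 31 genes 8 were enriched and 11 depleted, against 16.7% and 15.0% of all genes, and the median was -0.23. The endothelial receptor Acvrl1 and its coreceptor Eng, both mutated in hereditary haemorrhagic telangiectasia, rose by 2.49 ± 0.07 and 2.93 ± 0.09, and the ligand Tgfb1 rose by 2.70 ± 0.08, at 143, 163 and 136 RPKM against 28.3, 28.4 and 30.3. Tgfbr2 (1.82), Smad1 (1.45) and Tgfbr3 (1.17) were also enriched. The depleted members included the receptors Bmpr1a (-2.14) and Bmpr1b (-1.47) and the ligands Bmp7 (-2.02), Bmp6 (-1.84) and Bmp4 (-1.50). Bmp7, which keeps nephron progenitors alive, was read at 11.2, 8.90 and 12.7 RPKM in endothelial libraries and 53.5, 54.9 and 62.5 RPKM in whole kidney, with no overlap.

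Caveolae, fenestral diaphragm and lipid uptake genes were mostly enriched, 18 of 21 with 1 depleted and a median of 2.15. Among all genes 16.7% were enriched and 15.0% depleted. Cav1, the coat protein of caveolae, was read at 109, 130.1 and 133 RPKM against 23.7, 26.2 and 25.3 (2.66 ± 0.09), and the caveolar proteins encoded by Sdpr, Ehd2, Prkcdbp and Ptrf rose by 3.04, 2.69, 2.32 and 1.96. Fabp4, a fatty acid carrier of capillaries, was read at 1099, 1060.0 and 1066 RPKM against 159, 211 and 335 RPKM (log2 fold change 2.55 ± 0.21, adjusted p = 1.8e-06). Among genes enriched more than 4-fold only Agrn and Hspg2 were read at a higher endothelial level. The endothelial libraries lay close together for Fabp4 and the whole kidney libraries spread widely, still without overlap. Gpihbp1, which holds lipoprotein lipase on capillaries, rose by 2.76 ± 0.11, while Lpl itself, the lipase gene, was depleted (-1.28 ± 0.13).

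Among genes enriched more than 4-fold, the basement membrane genes Agrn and Hspg2 had the highest endothelial levels. Of 22 matrix genes 17 were enriched and 2 depleted, against 16.7% and 15.0% of all genes, with a median of 1.49. The depleted genes were Thbs1 (-0.88) and Bgn (-0.83). Agrn, the heparan sulphate proteoglycan agrin, was read at 1528, 1423 and 1578 RPKM in endothelial libraries and 359, 355 and 366 RPKM in whole kidney (log2 fold change 2.43 ± 0.11, adjusted p = 1.1e-08). Hspg2, which encodes perlecan, was read at 1193, 1131 and 1246 RPKM against 289, 231 and 244 (log2 fold change 2.58 ± 0.13, adjusted p = 3.6e-08), and Lama5, a laminin chain of vessels and of the glomerulus, at 560.2, 532 and 578 RPKM against 111, 103 and 96.9 (log2 fold change 2.78 ± 0.10, adjusted p = 3.3e-09). None of these ranges overlapped. Nid2 and Fbn1 rose by 2.043 and 2.24 ± 0.16, and the collagens Col15a1, Col4a2 and Col4a1 by 2.93, 1.55 and 1.51. Mmrn1, a multimerin, had the largest enrichment of the list at 3.17 ± 0.13 with 26.4, 22.5 and 21.8 RPKM. Against total kidney RNA, which shares the endothelial libraries, Agrn had a fold change of 4.21 and stood at 110.2 ± 8.76 RPKM in total RNA (mean ± SD, n = 3), Hspg2 had 4.89 and 54.2 ± 2.82 RPKM, and Lama5 had 5.07 and 22.3 ± 1.01 RPKM.

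Genes linked with fenestrated or kidney endothelium, 15 in all, gave 11 enriched and 3 depleted, against 16.7% and 15.0% of all genes. The median was 2.36. Plvap, Gpihbp1 and Esm1 of this list also belong to the surface and junction list, and Plvap and Gpihbp1 to the caveolae list. The counts of these lists are therefore not independent. Ehd3, a marker of glomerular endothelium, was read at 39.9, 46.4 and 30.8 RPKM against 9.67, 10.7 and 8.65 (log2 fold change 2.37 ± 0.13, adjusted p = 6.7e-08). Igfbp3, a binding protein of insulin-like growth factors, was read at 216, 223 and 209 RPKM against 58.2, 53.4 and 57.5 (log2 fold change 2.29 ± 0.07, adjusted p = 7.2e-10), and Aqp1, a water channel, at 33.5, 34.3 and 35.1 against 8.82, 6.77 and 9.23 (log2 fold change 2.41 ± 0.11, adjusted p = 1.2e-08). Irx3 (2.46) and the scavenger receptor gene Stab1 (2.36) were enriched as well. The depleted members were Igfbp5 at -1.04 ± 0.15, Tbx3 at -0.62 ± 0.08 and Npr3 at -0.46 ± 0.09. The call of Npr3 was lost without endothelial library 1 or 2 or whole kidney library 1 or 3, at -0.48 to -0.38, and that of Igfbp5 without whole kidney library 3, at -1.04. Gata5 had 0.05 ± 0.12 (adjusted p = 0.76), with a sign that turned under total counts and when endothelial library 2 or whole kidney library 3 was left out.

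Of 21 barrier genes of brain endothelium 4 were enriched, a share near the 16.7% of all genes, and 8 were depleted, against 15.0% of all genes, with a median of -0.21. The 4 were Cldn5, Abcg2 (1.43 ± 0.06), an efflux pump, Itm2a (1.12 ± 0.07) and Gpr124 (0.36 ± 0.07), the last with a sign that turned under total counts and a call that was lost without any 1 library but endothelial library 3, at 0.32 to 0.37. Slc2a1, the glucose transporter of the blood-brain barrier, was read at 24.6, 25.2 and 23.9 RPKM against 29.4, 31.5 and 29.1 (log2 fold change 0.07 ± 0.06, adjusted p = 0.35), and its sign also turned under total counts. The Wnt targets Apcdd1, Axin2 and Lef1, which mark barrier formation in brain vessels, were depleted, at -1.44 ± 0.07, -1.13 ± 0.10 and -1.11 ± 0.11, and so was the tight junction gene Ocln, at -2.12 ± 0.13. The efflux pump gene Abcb1a was read at 0.168, 0.160 and 0.210 RPKM against 0.0986, 0.111 and 0.0741 and the transporter gene Slco1c1 at 0.0923, 0.0385 and 0.0613 against 0.0773, 0.0534 and 0.0581, and neither was called. In the fit of all 21 libraries Abcb1a was enriched, at 1.24. Of 6 lymphatic genes, 3 were enriched and 1 depleted of the 5 tested: Flt4 rose as above, Lyve1 by 1.03 ± 0.17 and Reln by 0.89 ± 0.14, while Pdpn was depleted, at -1.52 ± 0.15. The calls of Lyve1 and Reln were lost with total counts, at 0.66 and 0.52, and without whole kidney library 3, at 1.04 and 0.92, and that of Lyve1 also without whole kidney library 2, at 0.93. Prox1, the factor that sets lymphatic identity, was read at 1.08, 0.930 and 1.81 RPKM against 0.633, 0.799 and 0.669 and did not pass (adjusted p = 0.0016). It was enriched with DESeq2, at 1.23, in the fit of all 21 libraries, at 1.2, and without endothelial library 2, at 1.41. Ccl21a, a lymphatic chemokine gene, was listed at 0 in all 6 libraries and not tested.

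**Figure D3:**
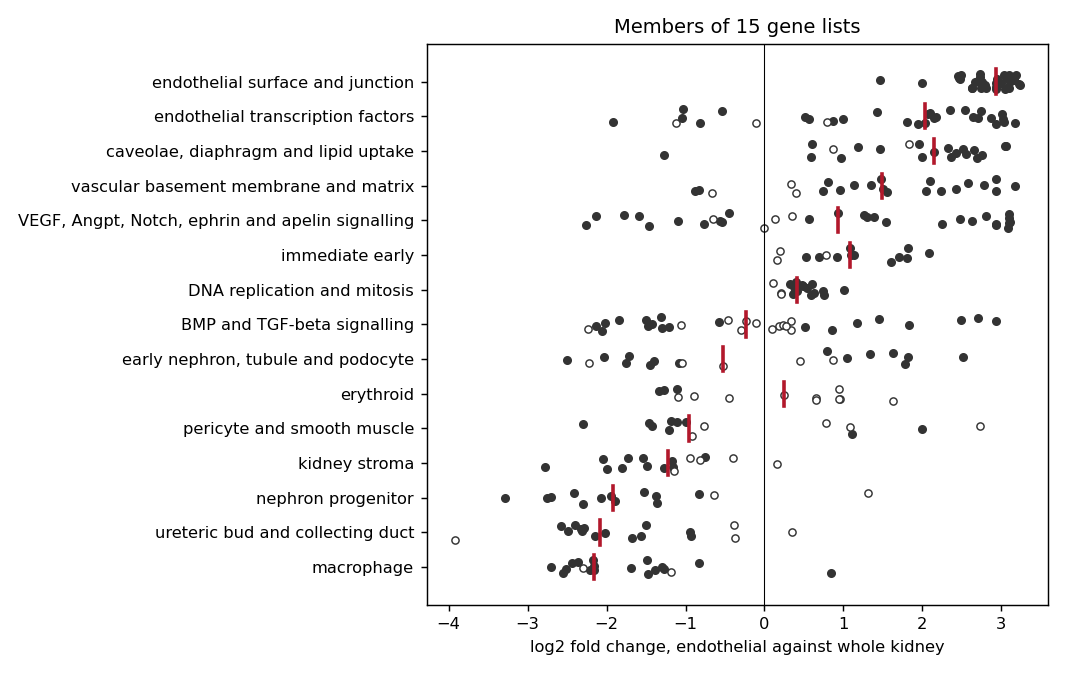
Log2 fold change, endothelial against whole kidney, of every tested member of 15 gene lists, with filled points for members at an adjusted p under 0.001, open points for the others and red lines for medians. The median runs from 2.93 for endothelial surface and junction genes to -2.16 for macrophage genes, and the endothelial factor and signalling lists hold members on both sides of 0.

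The largest enrichments outside these lists were found at low levels. B3gnt3, a glycosyltransferase that extends mucin-type chains on vessels, was read at 2.91, 7.67 and 4.99 RPKM against 0.117, 0.222 and 0.351 (log2 fold change 4.85 ± 0.43, adjusted p = 2.7e-06), the highest fold change among genes with a mean of at least 5 RPKM in the endothelial libraries. Cldn15, a claudin, was read at 8.24, 10.8 and 9.71 RPKM against 0.774, 0.526 and 0.997 (log2 fold change 4.01 ± 0.20, adjusted p = 2.7e-08). Acta1, the actin of skeletal muscle, stood at 2.95, 12.0 and 3.69 RPKM against 0.939, 0.372 and 0.249 (log2 fold change 3.89 ± 0.60, adjusted p = 2.3e-04), and endothelial library 2 lay far above the other two. The call of Acta1 was lost without whole kidney library 2, at 3.68, and without whole kidney library 3, at 3.57. Egfl8, a relative of Egfl7, rose by 3.66 ± 0.25, Eda2r, a receptor of the tumour necrosis factor family, by 3.41 ± 0.17, and Nos2, the inducible nitric oxide synthase, by 3.23 ± 0.09. Groups without overlap were a condition for choosing these genes.

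Among the 10 largest depletions, Wfdc2 had the highest level in whole kidney. Wfdc2, an epithelial protease inhibitor, was read at 8.15, 7.16 and 9.89 RPKM in endothelial libraries and 124, 147 and 148 RPKM in whole kidney, 12.9-fold lower by the fit (log2 fold change -3.69 ± 0.13, adjusted p = 1.9e-09). Sct, which encodes the hormone secretin, had the lowest fold change among genes with a mean of at least 5 RPKM in whole kidney, -4.13 ± 0.26, with 0.978, 0.723 and 0.384 RPKM against 15.9, 14.5 and 17.1. Fxyd2, the gamma subunit of the sodium pump in tubules, was read at 2.72, 1.99 and 1.81 RPKM against 28.2, 53.6 and 45.5 (-3.92 ± 0.26). S100g (-3.85), Ifitm1 (-3.82), the chemokine gene Cxcl13 (-3.60), H2-DMb2 (-3.58), Nkain4 (-3.45), Apoc1 (-3.45) and Npy, the neuropeptide Y gene (-3.43), followed. Groups without overlap were a condition for choosing these 10 genes.

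Nephron progenitor genes were depleted but still read in the endothelial libraries. Of 14 genes 12 were depleted, against 15.0% of all genes, 6 of them more than 4-fold, and none was enriched, with a median of -1.92. Six2, which keeps progenitors undifferentiated, was read at 13.4, 12.0 and 15.6 RPKM against 127, 117 and 99.9 (log2 fold change -2.71 ± 0.11, adjusted p = 8.4e-09). Cited1, found in the least differentiated progenitors, was read at 3.90, 2.83 and 4.06 RPKM against 43.8, 52.9 and 39.4 (log2 fold change -3.29 ± 0.15, adjusted p = 1.8e-08), and Eya1, a partner of Six2, at 5.93, 6.02 and 7.20 against 38.6, 41.7 and 40.4 (log2 fold change -2.30 ± 0.08, adjusted p = 3.0e-09). Crym and Hoxa11 fell, at -2.75 and -2.42. Wt1, which progenitors share with podocytes, fell less, at -1.38 ± 0.08, at 27.3, 23.5 and 28.0 against 86.8, 86.3 and 89.5 RPKM. The summed level of the 14 genes was 108 to 144 RPKM in endothelial libraries and 622 to 650.4 RPKM in whole kidney. The part of this remaining level in other results was not tested.

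Genes of the ureteric bud and collecting duct were depleted in 14 of 18 cases, 9 of them more than 4-fold, against 15.0% depleted among all genes. None was enriched, and the median was -2.08. Epcam, an adhesion molecule of epithelia, was read at 6.74, 6.64 and 8.90 RPKM against 48.5, 63.8 and 58.3 (log2 fold change -2.58 ± 0.13, adjusted p = 4.0e-08), and Ret, the receptor by which the bud senses Gdnf, at 1.48, 1.28 and 1.83 RPKM against 7.01, 9.56 and 9.22 (log2 fold change -2.15 ± 0.16, adjusted p = 6.5e-07). Calb1 (-2.49), Emx2 (-2.32) and Spint2 (-2.32) were depleted without overlap. Gdnf, the ligand made by progenitors, fell, at -1.36 ± 0.16. The simple keratin genes Krt8 (-0.37) and Krt18 (-0.39) were not called, with adjusted p = 0.091 and 0.013. Krt18 was depleted with total counts, at -0.76, and without whole kidney library 1, at -0.52. Aqp2, the water channel of the collecting duct, was barely read in either group, at 0, 0 and 0.0172 RPKM against 0.0867, 0.269 and 0.130, and was not called.

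The list of early nephron, tubule and podocyte genes went both ways. Of 19 genes 7 were enriched and 7 depleted, against 16.7% and 15.0% of all genes, with a median of -0.53. The depleted genes included Fgf8 (-2.50 ± 0.19), Pax8 (-2.03 ± 0.10), Wnt4 (-1.75 ± 0.11), Lhx1 (-1.44 ± 0.15), Hnf4a (-1.40 ± 0.24) and Cdh6 (-1.09 ± 0.18), which act in the renal vesicle and in tubules. Without whole kidney library 3 the calls of Hnf4a and Cdh6 were lost, at -1.15 and -0.97, and that of Hnf4a also without endothelial library 1 or whole kidney library 2, at -1.53 and -1.39. The enriched genes included the podocyte genes Clic5, Nphs1, Synpo and Ptpro, and Lrp2.

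Nphs1, which encodes nephrin of the slit diaphragm, was read at 8.98, 8.47 and 6.45 RPKM in endothelial libraries and 2.76, 3.12 and 4.04 RPKM in whole kidney (log2 fold change 1.63 ± 0.15, adjusted p = 4.2e-06). Clic5, present in podocytes and in glomerular endothelium, was read at 10.6, 10.7 and 9.88 RPKM against 2.93, 3.88 and 4.84 (log2 fold change 1.78 ± 0.14, adjusted p = 1.2e-06). Synpo, an actin-binding protein of foot processes, rose by 1.33 ± 0.12 and Ptpro by 1.04 ± 0.19. Ptpro alone among the 7 overlapped between the groups by RPKM, at 9.11, 8.74 and 6.32 against 4.27, 4.05 and 6.72, and its call was lost without endothelial library 1 or 2 or whole kidney library 1 or 2, at 0.91 to 0.99. With total counts the call of Ptpro was lost, at 0.68. Lrp2, which encodes the endocytic receptor megalin, rose most, by 2.52 ± 0.16, with 31.7, 24.6 and 26.1 RPKM against 4.71, 5.99 and 7.71, while its partner Cubn had 0.87 ± 0.17 and was not called (adjusted p = 0.001 after rounding). Cubn was enriched with DESeq2 and with relative log expression factors, both at 0.87. It was also enriched without endothelial library 3, at 0.97, and without whole kidney library 3, at 1.08. The podocyte gene Magi2 had 0.46 ± 0.12 and did not pass (adjusted p = 0.0074). Podocyte levels were well beneath those of Cdh5, and whether podocytes themselves carried tagged ribosomes was not tested.

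**Figure D4:**
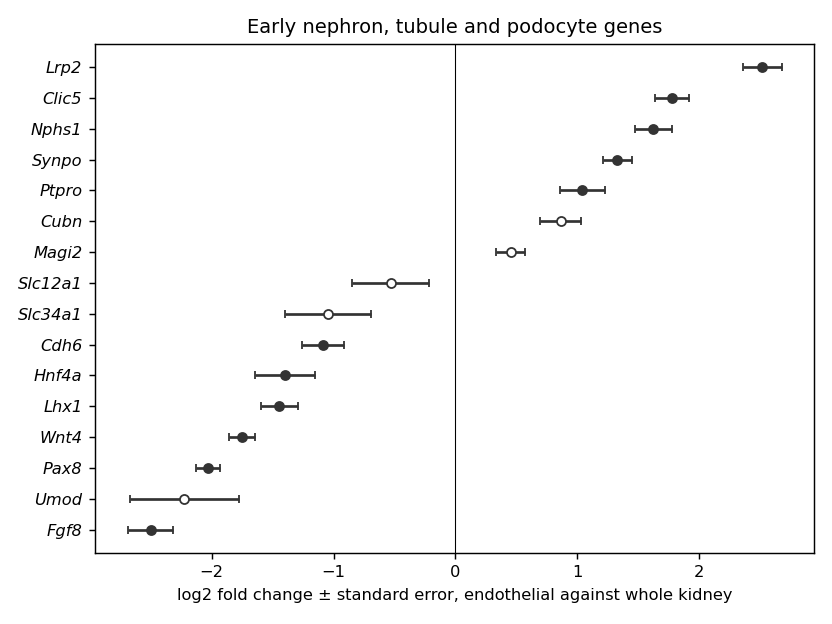
Log2 fold change, endothelial against whole kidney, of 16 of the 19 early nephron, tubule and podocyte genes with bars of 1 standard error, filled where the adjusted p was under 0.001 and open otherwise. The podocyte genes shown and Lrp2 lie above 0, and the vesicle and tubule genes from Cdh6 to Fgf8 lie below.

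Of 16 stromal genes 11 were depleted, against 15.0% of all genes, and none was enriched, with a median of -1.22. Foxd1, the factor of stromal progenitors, was read at 13.3, 10.3 and 13.3 RPKM against 79.5, 58.5 and 56.9 (log2 fold change -2.04 ± 0.14, adjusted p = 4.0e-07), and Penk, the proenkephalin gene, at 13.0, 7.16 and 8.34 against 70.5, 89.9 and 92.8 (log2 fold change -2.78 ± 0.19, adjusted p = 3.9e-07). Meis1 (-1.81) and Tcf21 (-1.72) were depleted too. The fibrillar collagen genes differed less: Col1a2 fell, at -0.76 ± 0.12, a call lost without whole kidney library 3 at -0.79, Col1a1 had -0.40 ± 0.17 (adjusted p = 0.062), and Col3a1 had 0.15 ± 0.14 (adjusted p = 0.37) with overlapping groups and a sign that turned under total counts and when endothelial library 3 was left out.

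Genes of pericytes and smooth muscle were depleted in 7 of 14 cases, against 15.0% of all genes, with a median of -0.96. The 2 enriched were a share near the 16.7% of all genes. Rgs5, a pericyte gene, was read at 6.30, 5.27 and 6.75 RPKM against 26.8, 42.1 and 46.8 (log2 fold change -2.30 ± 0.18, adjusted p = 1.3e-06). Pdgfrb, through which endothelium recruits pericytes, was read at 9.99, 7.56 and 8.72 against 29.6, 29.0 and 31.5 RPKM (log2 fold change -1.42 ± 0.09, adjusted p = 2.7e-07), and Notch3 (-1.47), Tagln (-1.21) and Kcnj8 (-1.19) were depleted. Cspg4, which encodes the NG2 proteoglycan, moved against the list, at 76.7, 67.9 and 77.2 RPKM against 28.1, 22.6 and 20.7 (log2 fold change 1.99 ± 0.11, adjusted p = 8.6e-08), as did Abcc9 (1.11 ± 0.09). Ren1, the renin gene, was read at 10.0, 20.4 and 2.70 RPKM against 4.55, 0 and 0. Its libraries overlapped and its fold change of 2.73 ± 1.25 did not pass (adjusted p = 0.088).

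Macrophage genes were depleted in 16 of 19 cases and enriched in 1, against 15.0% and 16.7% of all genes, with a median of -2.16. Tyrobp, an immune adaptor, was read at 1.99, 1.35 and 1.33 RPKM against 16.0, 11.6 and 11.9 (log2 fold change -2.71 ± 0.22, adjusted p = 1.6e-06), and C1qa, a complement subunit, at 0.750, 0.790 and 0.877 against 6.77, 5.68 and 5.67 (-2.55 ± 0.18). Emr1 (-2.52), Lyz2 (-2.44) and Csf1r (-1.30) were depleted. The summed level of the list was 23.6 to 26.5 RPKM in endothelial libraries and 77.6 to 97.4 RPKM in whole kidney. Laptm5 alone rose, at 8.25, 10.2 and 8.32 RPKM against 7.13, 5.67 and 6.19 (log2 fold change 0.85 ± 0.12, adjusted p = 9.0e-05), a call that was lost with total counts, at 0.48, and without whole kidney library 3, at 0.83. Red cell genes gave 3 depleted of 13 tested, against 15.0% of all genes, with none enriched and 10 not called. Their median of 0.24 turned to -0.13 with total counts. Their summed levels were 50.7 to 103 RPKM in endothelial libraries and 109.6 to 200.5 RPKM in whole kidney. Hbb-y, the embryonic beta globin gene, was read at 41.9, 33.7 and 38.4 RPKM against 123, 152 and 77.9 (-1.27 ± 0.19), and the globin rows may share reads with near-identical copies. In the fit of all 21 libraries 1 red cell gene was depleted and Hbb-y was not called (adjusted p = 0.0039). Of 8 megakaryocyte and platelet genes 1 was enriched, a share under the 16.7% of all genes. It was Pf4, at 26.6, 30.9 and 21.6 RPKM against 11.8, 10.8 and 11.0 (1.59 ± 0.14). The platelet genes Itga2b (-0.40, adjusted p = 0.081) and Ppbp (-1.79, adjusted p = 0.0062) were not called, although Ppbp was depleted without endothelial library 3, at -2.49.

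Of 10 neuronal and neural crest genes Stmn2 was enriched, at 10.2, 12.5 and 10.6 RPKM against 3.14, 4.16 and 3.00 (2.05 ± 0.13), Elavl4 was depleted (-1.47 ± 0.15), 2 genes were depleted without whole kidney library 3, and Sox10, a neural crest factor, was read at 0.0415, 0.0225 and 0.0359 RPKM against 0.0302, 0 and 0.0340. Of 8 adrenal and gonadal genes Mc2r was depleted (-1.54 ± 0.22), and the summed level of the list was 1.76 to 2.17 RPKM in endothelial libraries and 4.07 to 4.78 in whole kidney. For both lists the shares called were under those of all genes, 16.7% enriched and 15.0% depleted. The sex of the embryos differed between pools. The Y-linked gene Ddx3y was read at 8.54, 17.4 and 12.4 RPKM in endothelial libraries and 0.0353, 0.00913 and 18.3 RPKM in whole kidney, and the X-inactivation RNA Xist at 3.89, 0.0612 and 2.93 against 5.83, 6.57 and 0.233, so whole kidney libraries 1 and 2 were nearly free of Y-linked reads and none of the 5 sex-linked genes was called. That count rested on whole kidney library 3, without which 4 of the 5 were enriched and Ddx3y had a fold change of 9.45.

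Gene families taken by symbol pattern gave counts on both sides of the background, 16.7% enriched and 15.0% depleted among all genes. Of 38 Hox genes tested, which set position along the body axis, 23 were depleted and 2 enriched, with a median of -1.11. Hoxc11 (-3.00), Hoxc10 (-2.97) and Hoxa11 (-2.42) were among the lowest. Hoxa5 (0.58) was enriched, but not with total counts, at 0.21, or without whole kidney library 3, at 0.57, and with total counts no Hox gene was enriched. Of 19 Wnt ligand genes 11 were depleted and none enriched, with Wnt11, made at the tips of the ureteric bud, at -2.31 ± 0.12. Of 23 claudins tested, Cldn15 and Cldn5 were enriched and 12 were depleted, with Cldn6 at 6.15, 5.96 and 7.19 RPKM against 52.9, 62.8 and 60.4 (-2.83 ± 0.10) and Cldn3 at -2.48. Of 11 laminin genes tested 4 were enriched, 1 was depleted and 6 were not called, and without endothelial library 2 the number enriched was 8. The enriched genes were Lama5, Lama3 (2.64), Lama4 (2.10) and Lamc1 (0.96). Of 31 integrin subunits 5 were enriched and 5 depleted, shares near those of all genes (16.7% and 15.0%), and without whole kidney library 3 the number depleted was 3. The enriched subunits were led by Itga2 (2.67 ± 0.11), a collagen receptor, and Itga5 (1.89 ± 0.06), a fibronectin receptor.

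Arhgef15, an endothelial exchange factor of the surface list, was read at 99.4, 106 and 91.3 RPKM against 14.7, 17.0 and 16.0 (3.00 ± 0.08). Of 40 RGS and Ras-family regulators 18 were enriched and 2 depleted, against 16.7% and 15.0% of all genes. The median was 0.15 and, with total counts, -0.21. The number depleted was 1 without endothelial library 2 or without any 1 whole kidney library. Rasgrp3, which loads Ras and Rap, was read at 105, 113 and 99.1 RPKM against 20.3, 20.7 and 19.2 (2.75 ± 0.07), and Rapgef5, Rapgef4 and Rapgef3, exchange factors for Rap, rose by 2.58, 2.55 and 2.49. Of 29 semaphorins and plexins 9 were enriched and 14 depleted, with Plxnd1, the endothelial receptor of semaphorin 3E, at 345, 351 and 318 RPKM against 76.1, 74.6 and 74.6 (2.52 ± 0.08). Of 22 Eph receptors and ephrins 5 were enriched and 12 depleted, against 16.7% and 15.0% of all genes. They were led by Ephb1 at 2.61 ± 0.15 and Efna3 at -1.94 ± 0.13.

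Immediate early genes are induced within minutes of growth factor or stress signals. In this list 11 of 14 genes were enriched, against 16.7% of all genes, with a median of 1.09. With total counts 8 were enriched. Dusp1, a phosphatase that ends MAP kinase signals, was read at 29.5, 31.8 and 28.7 RPKM against 9.63, 9.16 and 8.27 (log2 fold change 2.09 ± 0.08, adjusted p = 4.8e-09). Junb (1.82), Atf3 (1.71), Nr4a1 (1.60) and Jun (0.91) were enriched. Fos (0.78 ± 0.26, adjusted p = 0.025) and Egr1 (0.15 ± 0.10, adjusted p = 0.23) were not called, and the sign of Egr1 turned under total counts. Genes of DNA replication and mitosis were enriched in 17 of 20 cases with a median of only 0.41, and in 3 with total counts, where the median was 0.04. Without endothelial library 1, whole kidney library 1 or whole kidney library 3 the number enriched was 10, 11 and 11. Mki67, the proliferation antigen, rose most, by 1.01 ± 0.11, at 56.3, 41.8 and 54.7 RPKM against 30.9, 32.4 and 33.7, and Pcna, the replication clamp, had 0.10 ± 0.08 (adjusted p = 0.3) with a sign that turned under total counts. Among 93 oxidative phosphorylation genes 19 were enriched, a share near the 16.7% of all genes, and 7 depleted, which became 3 and 27 with total counts. Without whole kidney library 3 the numbers were 12 and 4, and without endothelial library 1 or whole kidney library 2 the number depleted was 4. In the ribosomal protein pattern the 4 genes enriched, of 101, were Rps6ka kinases such as Rps6ka1 (1.62), and 3 genes were depleted. With total counts 2 were enriched and 34 depleted, and by RPKM whole kidney was higher without overlap for 69, against 50.0% of all genes. Without endothelial library 2 or whole kidney library 1 the number depleted was 5. Rpl10a, the gene fused to the tag, was at 7.60, 8.61 and 5.98 RPKM against 11.6, 12.5 and 9.06 (log2 fold change -0.23 ± 0.16, adjusted p = 0.26). Whether reads of the transgene were counted in this row was not tested.

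Of 1641 noncoding rows tested, 35 were enriched (2.13%, against 16.7% of all rows) and 118 depleted (7.19%, against 15.0%). Rows entered the test with 1 count or more, and noncoding rows were not matched to other rows by level. H19, the imprinted growth-restraining RNA, was read at 737, 828 and 698 RPKM against 584, 595 and 633 (log2 fold change 0.68 ± 0.09, adjusted p = 5.1e-05), and was not called with total counts, at 0.31. The rows 2810025M15Rik, 2900097C17Rik and Peg13 rose by 1.75 ± 0.07, 1.79 ± 0.19 and 1.38 ± 0.07. Rn45s, the ribosomal RNA precursor, whose copies share reads and whose level is uncertain, had 1.59 ± 0.19. Hoxa11as, which overlaps Hoxa11 on the other strand, fell, at -2.81 ± 0.12, and since no source used here states that the counting used strand, its reads cannot be told apart from those of Hoxa11. Tug1, Gas5, 1810058I24Rik and 2410006H16Rik fell, at -0.37, -0.57, -0.65 and -0.72. The call of Tug1 was lost without any 1 library but endothelial library 3, at -0.40 to -0.33, and that of Gas5 without endothelial library 1 or whole kidney library 2 or 3, at -0.62 to -0.49.

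Against total RNA of the kidney, from Sox2Cre embryos and without pull-down, 4388 of 19335 genes were enriched (22.7%) and 3550 depleted (18.4%), 694 and 797 of them more than 4-fold (3.59% and 4.12%). These counts share the endothelial libraries with those above and stand beside them only. Cdh5 had a fold change of 3.41 against total RNA and 3.16 against the whole kidney translatome, Pecam1 3.69 and 2.93, and Plvap 3.33 and 3.06. Six2 had -2.21 and -2.71. Tyrobp, the macrophage adaptor, had -1.43 and -2.71, and H19 changed sign, -1.18 against total RNA, where it was read at 2302 ± 77.0 RPKM, and 0.68 against the translatome. Hbb-y had -3.01 and -1.27, with 412 ± 134 RPKM in total RNA.

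Whether the endothelial enrichment differed between kidney and forebrain was tested as the difference of the kidney and brain fold changes in 12 libraries, with brain endothelial (Cdh5CreERT2) and brain (Sox2Cre) translatomes of the same age. Of 19764 genes tested, 1700 had the higher enrichment in kidney (8.60%) and 3258 in brain (16.5%). For 35 of the 37 surface and junction genes the enrichment was higher in brain, with medians of 4.31 in brain and 2.90 in kidney, and none was higher in kidney. For Cdh5 the values were 4.77 and 3.14 (difference -1.63 ± 0.11, adjusted p = 3.8e-09). The endothelial level of Cdh5 was 359 ± 17.5 RPKM in kidney and 369.9 ± 22.4 RPKM in brain (mean ± SD, n = 3 each), and the level in the whole organ was 51.2 ± 0.106 in kidney and 16.6 ± 1.55 in brain.

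Of the fenestrated and kidney genes, Ehd3 and Aqp1 had the higher enrichment in kidney. Ehd3 had 2.34 in kidney and -0.00 in brain (difference 2.34 ± 0.18, adjusted p = 1.3e-08), with endothelial levels of 39.0 ± 7.82 and 7.39 ± 1.01 RPKM. Aqp1 had 2.38 and 0.16 (difference 2.23 ± 0.17, adjusted p = 1.5e-08), with 34.3 ± 0.815 and 3.44 ± 0.266 RPKM. The other 8 called genes had the higher enrichment in brain and 5 were not called. Among all genes 8.60% had the higher enrichment in kidney and 16.5% in brain. Plvap had 3.03 in kidney and 4.29 in brain, yet its endothelial level was 419 ± 54.6 RPKM in kidney and 84.4 ± 8.81 in brain.

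Barrier genes had the higher enrichment in brain for 19 of 21 members and in kidney for none, and the median was 3.68 in brain. Among all genes the shares were 16.5% and 8.60%. This order was not particular to barrier genes, since 35 of the 37 surface and junction genes were also higher in brain. Slc2a1 had 0.04 in kidney and 4.18 in brain (difference -4.14 ± 0.10, adjusted p = 4.6e-14), with endothelial levels of 24.6 ± 0.633 and 722 ± 28.9 RPKM. Mfsd2a, a lipid transporter of the barrier, had -2.14 and 3.68, and Apcdd1 had -1.47 and 3.52, with 7.93 ± 0.315 and 669 ± 37.6 RPKM in the endothelial libraries. Cldn5 was enriched in both organs, by 2.60 and 4.50, at 317 ± 42.7 and 1263 ± 104 RPKM.

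**Figure D5:**
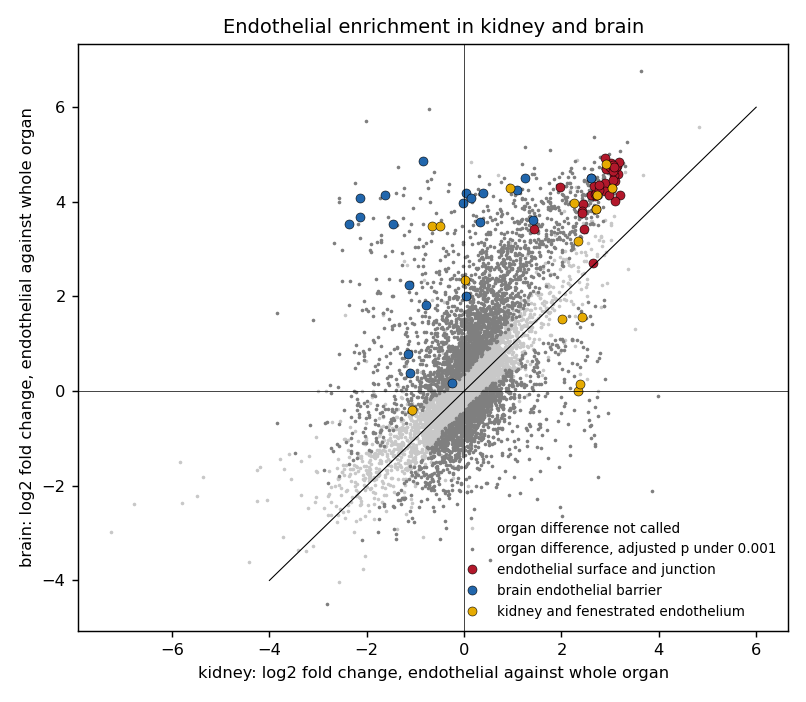
Log2 fold change, endothelial against whole organ, in kidney (horizontal) and brain (vertical) for genes at 5 RPKM or more in either endothelial group and all list members, from the fit of 12 libraries, with the line of equal values. Surface and junction genes (red) cluster above the line in both organs, barrier genes (blue) are high in brain and mostly near or below 0 in kidney, with Cldn5, Abcg2, Abcb1a and Itm2a further to the right, and Ehd3 and Aqp1 (yellow) lie to the right of the line.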

How the data were processed

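Per the labels and the methods of the study, indexed libraries were pooled for sequencing. The authors mapped the reads to the mouse genome GRCm38/mm10 with RUM and counted them per gene of the UCSC refGene table. They deposited read counts and RPKM values for each library separately, with 23827 rows per library. Whether counting used strand is not given in the sources used here. The deposited counts went into edgeR 4.0.16 (R 4.3.3), whose quasi-likelihood F test was run after TMM scaling on rows with 1 count or more in the libraries fitted, with Benjamini-Hochberg adjustment over all rows tested and a call at an adjusted p under 0.001. The comparison with total RNA used 3 kidney transcriptomes, and the organ difference was an interaction term in 12 libraries. The deposited RPKM values were printed as levels and not tested. Standard errors were derived from the F statistic of each fold change. Alternatives were DESeq2 1.42.0, relative log expression factors, total counts, a minimum of 10 counts in 3 libraries, a replicate block, a fit of all 21 libraries and leaving out each library. The fitting script was tested on simulated data. Tables and plots were made with Python 3.11.15, pandas 2.3.3, numpy 2.4.6 and matplotlib 3.10.9, and the plot of level against fold change adds 0.1 RPKM before the logarithm.

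Total counts of 21760652 to 45166528 reads per library set the precision of low rows. The p-values set each group difference against the spread between these libraries, an estimate that borrows from other genes. They do not separate the cell type from driver, tamoxifen or lane. The members and lists were chosen with earlier results of these data known. Genes were named by rule: the 3 markers and Rpl10a, up to 5 members of each list with the largest fold change in either direction and members near 0, the 10 largest enrichments and depletions at a mean of at least 5 RPKM without overlap, the 10 highest levels among genes enriched more than 4-fold, 5 noncoding rows in each direction, and the 8 largest organ differences in each direction. Other list members were named for their role after their values were seen. Promoter windows came from RefSeq on GRCm38.p6, without those of 1 chromosome, and were matched by symbol. Some genes and 1 gene family are not reported here.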

Additional observations from a re-analysis of the deposited data

Results flagged for a closer look

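Among genes with a mean of at least 5 RPKM in the endothelial libraries of the organ with the higher enrichment, these had the largest differences between the kidney and brain fold changes (endothelial against whole organ, edgeR interaction test on 12 libraries, adjusted p under 0.001), 8 in each direction. The enrichment was higher in kidney for Acta1 by 5.96, with 3.86 in kidney and -2.11 in brain, for the axonal growth gene Gap43 by 5.67 (2.73 and -2.93), for Stmn2 by 4.65 (2.02 and -2.64) and for Sez6l2 by 4.57 (2.75 and -1.82). It was also higher in kidney for the fatty acid binding gene Fabp5 by 4.41 (1.97 and -2.44), Cldn15 by 4.08 (3.98 and -0.10), the endothelin receptor gene Ednrb by 3.85 (2.68 and -1.17) and Lhx6 by 3.80 (2.69 and -1.12). The call of Cldn15 was lost without brain translatome library 1, at 3.5. Gap43 was read at 41.4 ± 5.14 RPKM in kidney endothelial and 7.80 ± 0.640 in whole kidney libraries, and at 58.7 ± 10.8 RPKM in brain endothelial and 548 ± 28.8 in whole brain libraries (mean ± SD, n = 3). Gap43 and Stmn2 stood higher in brain endothelial than in kidney endothelial libraries while their difference from the whole organ had the opposite order.

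The enrichment was higher in brain for Adh1, an alcohol dehydrogenase gene, with a difference of -6.68 (-0.72 in kidney and 5.96 in brain), Lsr, a tricellular junction gene, with -6.66 (-2.57 and 4.09), Htra3 with -6.63 (-2.24 and 4.39) and Mal with -6.57 (-2.58 and 4.00). The barrier genes Ocln with -6.23 (-2.14 and 4.09), Spock2 with -5.89 (-2.36 and 3.53) and Mfsd2a with -5.82 (-2.14 and 3.68), and the matrix gene Ecm1 with -6.10 (-1.37 and 4.73), followed. Lsr was read at 3.29 ± 0.189 RPKM in kidney endothelial and 24.6 ± 1.91 in whole kidney libraries, and at 149.5 ± 6.48 in brain endothelial and 10.8 ± 0.790 in whole brain libraries.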

How the results depend on the processing

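With total counts in place of composition factors, 1564 genes were enriched and 5655 depleted in the endothelial against the whole kidney translatome, 336 and 1179 of them more than 4-fold. Against total RNA the same scaling gave 2246 enriched and 6864 depleted genes. DESeq2 gave 2735 genes with the higher enrichment in kidney than in brain. The cause was not tested. Relative log expression factors gave 3172 enriched and 2833 depleted genes, a minimum of 10 counts 2896 and 2764, DESeq2 3811 and 3409, and a fit of all 21 libraries 3809 and 4145. Leaving out each library in turn gave 2292 to 3127 enriched and 1958 to 2672 depleted genes, 479 to 518 and 518 to 653 of them more than 4-fold. It gave 3711 to 4342 enriched and 2873 to 3524 depleted genes against total RNA, and 1434 to 1654 genes with the higher enrichment in kidney and 2866 to 3243 in brain. The embryos of the groups differed, and libraries with the same replicate number had deviations from their group means that correlated at -0.0235, 0.0296 and 0.0121 over 13655 genes, so the numbers gave no pairing. With the replicate number as a block, 2936 genes were enriched and 2547 depleted, 500 and 554 of them more than 4-fold.

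Of 5343 pairs of a gene and an alternative, 13 turned sign, in 8 genes. With total counts the fold change was -0.01 for Gpr124, -0.22 for Col3a1, -0.21 for Egr1, -0.32 for Gata5, -0.27 for Pcna and -0.30 for Slc2a1. Leaving out 1 library at a time gave ranges of -0.05 to 0.25 for Col3a1, -0.04 to 0.12 for Gata5, -0.07 to 0.04 for Jag1 and -1.11 to 0.06 for Xist. In 277 pairs a call was lost and in 20 one was gained. Depth limits the genes read at a few counts per library.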
